A study of Mus musculus with 6 samples.

Results

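The genes described here are 4 ligands of the bone morphogenetic protein (BMP) family (Bmp2, Bmp4, Bmp5 and Bmp7) and 6 genes known to be switched on directly by BMP signalling (Msx1, Msx2, Id1, Id2, Id3 and Smad6). They were chosen by gene symbol, with earlier results of these data known. All 10 were found once each among the 24975 genes of the deposited count table. RNA was sequenced from mouse mesoderm sorted at embryonic day 7.5, with 1000 cells per library, and each library came from embryos pooled with their littermates. The 3 Gli3R libraries had the genotype Mesp1-Cre/+;R26-Gli3R-IRES-Venus/+, in which Gli3R, the form of the Hedgehog factor Gli3 that represses its targets, is made together with the fluorescent protein Venus. The 3 control libraries, titled Wt, had the genotype Mesp1-Cre/+;R26-tdTomato/+, so both groups carried the Cre recombinase, which is driven by Mesp1, a gene of nascent mesoderm. Each of 3 litters gave 1 library of each group. Per the notes in the deposited table, Gli3R cells were sorted on Venus and control cells on tdTomato, so an effect of Gli3R cannot be told apart from one of the reporter or its gate.

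BMP ligands are secreted dimers that bind pairs of type I and type II receptor kinases, which phosphorylate SMAD1 and SMAD5. These SMADs enter the nucleus with SMAD4 and switch on genes such as Id1, Id3, Msx1, Msx2 and the feedback inhibitor Smad6. In the mouse gastrula, Bmp4 from extraembryonic tissues is needed for mesoderm, the allantois and primordial germ cells, and Hedgehog and BMP signals act on many of the same mesodermal tissues. The comparison asked how these ligands and response genes stood in mesoderm made to express Gli3R.

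The promoters of the genes on which the results turn are shown first: Bmp4 and Msx1, which were higher with Gli3R, and Id3, the most abundant of the response genes. Of the 10 genes, 7 had an entry in RefSeq's promoter table (GRCm38.p6, not the build of the counts). The 250 bases before each start are given 5′ to 3′ on the gene's own strand, with searched motifs in capitals.
Bmp4, chr14:46390670-46390919, minus strand: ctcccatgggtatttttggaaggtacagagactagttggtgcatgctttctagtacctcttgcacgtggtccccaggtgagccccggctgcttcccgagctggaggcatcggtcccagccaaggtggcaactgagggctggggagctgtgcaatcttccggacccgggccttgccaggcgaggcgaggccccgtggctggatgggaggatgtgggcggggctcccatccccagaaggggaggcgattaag
Msx1, chr5:37824586-37824835, minus strand: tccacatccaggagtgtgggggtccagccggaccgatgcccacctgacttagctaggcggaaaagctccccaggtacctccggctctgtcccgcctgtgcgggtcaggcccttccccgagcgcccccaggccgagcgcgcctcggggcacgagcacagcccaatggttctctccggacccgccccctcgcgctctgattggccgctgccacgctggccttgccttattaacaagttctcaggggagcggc
Id3, chr4:136143572-136143821, plus strand: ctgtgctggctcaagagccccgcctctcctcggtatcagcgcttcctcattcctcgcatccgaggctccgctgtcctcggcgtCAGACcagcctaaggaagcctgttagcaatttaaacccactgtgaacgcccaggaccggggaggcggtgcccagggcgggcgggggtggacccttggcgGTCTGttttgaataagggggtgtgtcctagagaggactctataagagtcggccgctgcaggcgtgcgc

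The motifs, searched on both strands, were GGCGCC, a GC-rich site of SMAD1 and SMAD5, CAGAC, a short SMAD site, and GACCACCCA, a site of Gli factors. The short SMAD site stood in 2 of the 7 promoters, those of Id3, with 2 matches, and Bmp5, against 42.2% of all 32851 promoter entries of the same length. The GC-rich site stood in 1 of the 7, that of Id2, against 9.59% of all entries. The Gli site, which may share letters with the short SMAD site, stood in 0 of the 7, against 0.225% of all entries. The Bmp4 and Msx1 windows, at 63.2% and 68% G and C, held none of the searched letters.

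The Gli3R libraries held 12635151, 7820726 and 6592417 counts in replicates 1, 2 and 3, and the control libraries 5481190, 10435790 and 7859087. Of all genes, 11913 were expressed enough to be tested, and all 10 BMP genes were among them, at 30 to 6001 reads per library. Gli3, part of which the transgene carries, stood at 39.0 to 50.9 CPM (counts as a share of the TMM-scaled library size) in Gli3R and 25.8 to 34.4 CPM in control libraries, and its log2 fold change of 0.57 ± 0.15 (SE) missed the threshold (adjusted p = 0.312, quasi-likelihood test of edgeR). Control replicate 1, the shallowest library, stood apart on the first principal component (35.0% of the variance), at 39.8 against -19.2 to 2.25 for the others. For the 10 genes, results whose direction it changed are given with and without it, and marker sums are given with it. The mesoderm markers Mesp1, Pdgfra, Kdr, Foxf1, Hand1, Tbx6, Lefty2 and Snai1 had reads in every library. Of these 8, 0 had an adjusted p under 0.05 in edgeR. At an unadjusted p under 0.05 without litter in the fit, Kdr and Hand1 were higher and Foxf1, Tbx6 and Lefty2 lower. The median log2 fold change of the 8 was -0.49.

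**Figure D1:**
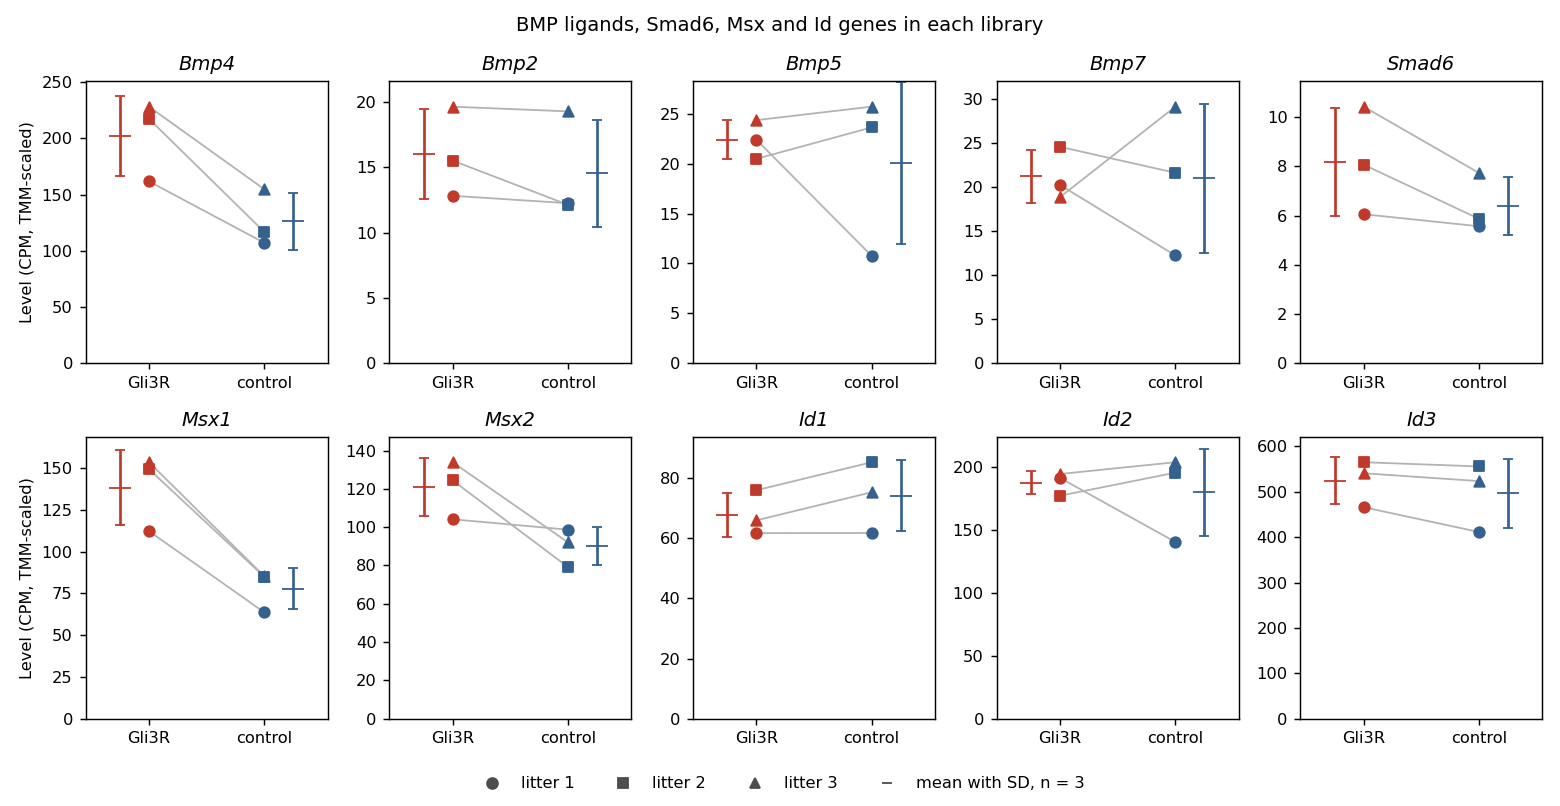
Level of each of the 10 genes (CPM, TMM-scaled, linear axis from 0) in the 3 Gli3R libraries (red, left) and the 3 control libraries (blue, right) of each panel. Grey lines join libraries of the same litter, and bars give the mean and SD of 3 libraries. The groups did not overlap for Bmp4, Msx1 and Msx2 and overlapped for the other 7 genes.

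Bmp4, Msx1 and Msx2 were higher in every Gli3R library than in any control library. Their estimated folds between the groups were 1.34 to 1.77, while the 3 Id genes had folds of 0.911 to 1.05. Without litter in the fit, 0 of the 10 genes reached a Benjamini-Hochberg adjusted p under 0.05 (quasi-likelihood test of edgeR over 11913 genes). Of all tested genes, 0.134% did, 0.0252% as higher and 0.109% as lower. With litter as a block, which follows the study's litter matching, 2 of the 10 rose, Bmp4 and Msx1. Of all tested genes, 0.227% passed with the block, 0.0755% as higher and 0.151% as lower. At an unadjusted p under 0.05, 3 of the 10 were higher and 0 lower in either fit. Among all tested genes, 3.56% were higher and 3.29% lower without the block (6.85% in all), and 4.83% and 3.9% with it (8.73% in all). DESeq2 also called 2 of the 10 as higher, against 0.361% of all genes as higher and 0.428% as lower. By limma-voom 0 of the 10 passed, against 0.00839% as higher and 0.0755% as lower. The groups did not overlap for 3 of the 10, all higher with Gli3R. Of all tested genes, 12% had groups that did not overlap, 5.62% higher and 6.33% lower. As the 10 were chosen with earlier results of these data known, shares over all genes, here and below, are no test of the set. The median log2 fold change of the 10 was 0.13 and that of all tested genes -0.0079. Without control replicate 1 and without the block, these medians were -0.0086 and 0.011.

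**Figure D2:**
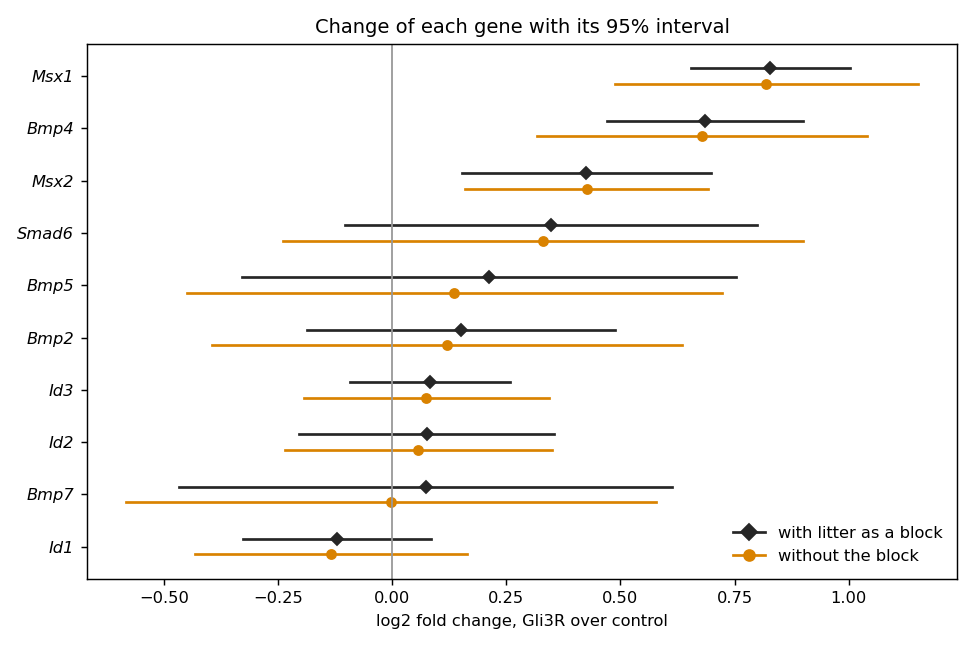
Log2 fold change of Gli3R over control with its 95% interval for each of the 10 genes, from the edgeR fit with litter as a block (black diamonds) and without it (orange circles). Intervals of Msx1, Bmp4 and Msx2 lay above 0 in both fits, and those of the other 7 genes held 0.

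Among the ligands, Bmp4 was both the most abundant and the one that differed. Bmp4 (Entrez gene 12159) encodes the ligand that extraembryonic mesoderm and ectoderm supply to the gastrula. It stood at 162, 217 and 228 CPM in Gli3R replicates 1, 2 and 3, against 107, 117 and 155 CPM in control replicates 1, 2 and 3. The lowest Gli3R library was above the highest control library by 7.02 CPM. Bmp4 averaged 203 ± 35.7 CPM in Gli3R and 126 ± 25.2 CPM in control libraries (SD, n = 3 each), a fold of 1.60 with a 95% interval of 1.25 to 2.06. Within litters 1, 2 and 3, Gli3R exceeded control by 0.60, 0.90 and 0.56 on the log2 scale, so each litter showed the same direction. The log2 fold change was 0.68 ± 0.16 (SE) without the block (edgeR quasi-likelihood test, adjusted p = 0.245) and 0.69 ± 0.092 with it (adjusted p = 0.0424). The call changed with the litters in the fit. With the block and without litter 2 or litter 3, the adjusted p in edgeR was 0.412 or 0.145, and without litter 1 it was 2.80e-04. The log2 fold changes without litter 1, 2 or 3 were 0.73, 0.60 and 0.75. Over all genes, 221, 3 and 0 passed in these fits, so the calls do not show which litter carried the difference. Without control replicate 1 and without the block, the log2 fold change was 0.58.

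The other 3 ligands were far less abundant and did not pass in either fit. Bmp2 (12156), which visceral endoderm and heart-forming mesoderm use, stood at 12.8, 15.5 and 19.6 CPM in Gli3R libraries, against 12.2, 12.1 and 19.3 CPM in control libraries. In each group litter 3 had the highest Bmp2 level, and the log2 fold change was 0.12 ± 0.23 (SE; 95% interval -0.40 to 0.63).

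Bmp5 (12160), a ligand with roles that overlap those of Bmp7 in the allantois and heart, stood at 22.4, 20.5 and 24.4 CPM in Gli3R libraries, against 10.8, 23.7 and 25.7 CPM in control libraries. The low library was control replicate 1. The log2 fold change of 0.14 ± 0.26 became -0.14 without that library. Bmp7 (12162) stood at 20.3, 24.6 and 18.9 CPM in Gli3R libraries, against 12.2, 21.6 and 29.2 CPM in control libraries. Its litters disagreed, at 0.73, 0.18 and -0.63 on the log2 scale, and its log2 fold change was -0.0025 with a 95% interval of -0.58 to 0.58.

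Levels per kilobase of merged exons allow only a rough comparison between genes. The lengths hold all annotated exons of a gene and come from another build than the counts. On this scale Bmp4 made up 83.5%, 86.1% and 86.2% of the summed level of the 4 ligands in the Gli3R libraries. In the control libraries it made up 83.9%, 78.0% and 78.3%. The groups overlapped on this share, because control replicate 1 lay above Gli3R replicate 1. Bmp2, Bmp5 and Bmp7 averaged 4.25% ± 0.41, 5.38% ± 0.99 and 5.10% ± 0.98 of that sum in Gli3R libraries, and 5.79% ± 0.58, 6.94% ± 2.08 and 7.24% ± 1.62 in control libraries (SD, n = 3 each).

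The Msx genes, which encode homeobox factors induced by BMP in many tissues, included the gene with the smallest p of the 10. Msx1 (17701) stood at 112, 149 and 154 CPM in Gli3R replicates 1, 2 and 3, against 63.6, 84.9 and 85.2 CPM in control replicates 1, 2 and 3. The groups were 27.1 CPM apart. Msx1 averaged 138 ± 22.7 CPM in Gli3R and 77.9 ± 12.4 CPM in control libraries (SD, n = 3 each), a fold of 1.77 with a 95% interval of 1.4 to 2.22. The differences within litters 1, 2 and 3 were nearly equal, at 0.82, 0.81 and 0.85 on the log2 scale. The log2 fold change was 0.82 ± 0.15 (SE) without the block (edgeR quasi-likelihood test, adjusted p = 0.104) and 0.83 ± 0.075 with it (adjusted p = 0.0121). With the block and without litter 2 or litter 3, the adjusted p in edgeR was 0.177 or 0.103, and without litter 1 it was 4.67e-05. Without control replicate 1 and without the block, the log2 fold change was 0.70.

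Msx1os, an antisense RNA gene that lies inside the Msx1 gene in the RefSeq annotation, had a level almost in proportion to Msx1. It took 43.9%, 42.9% and 43.4% of the reads of both genes in Gli3R libraries and 44.7%, 43.9% and 43.8% in control libraries (exact 95% intervals from 40.7% to 48.7%, for counting error only). Its log2 fold change was 0.78 ± 0.14 (adjusted p = 0.104 without the block and 0.0176 with it, edgeR quasi-likelihood test). The sources used here give no strand setting for the counting, so reads of the pair cannot be told apart and the Msx1os value is not independent of that of Msx1. With both genes summed, an alternative added after the data were seen, the log2 fold change was 0.81 and the adjusted p in edgeR 0.0899 without the block and 0.0120 with it.

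Msx2 (17702), the close relative of Msx1, stood at 104, 124 and 134 CPM in Gli3R libraries, against 98.7, 79.2 and 92.1 CPM in control libraries. The groups were 5.43 CPM apart, and control replicate 1 was the highest control library, where it was the lowest one for Msx1. Within litters 1, 2 and 3 the difference was 0.077, 0.65 and 0.54 on the log2 scale. Msx2 averaged 121 ± 15.2 CPM in Gli3R and 90.0 ± 9.93 CPM in control libraries, with a log2 fold change of 0.43 ± 0.12 (SE) that did not pass without or with the block (edgeR quasi-likelihood test, adjusted p = 0.374 and 0.291). It passed with the block when litter 1 was left out (adjusted p = 0.00233), with a log2 fold change of 0.60.

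The Id genes encode helix-loop-helix proteins that lack a DNA-binding region and hold back basic helix-loop-helix factors. They are among the most direct readouts of SMAD1 and SMAD5 activity. Id3 (15903), the most abundant of the 10 genes, stood at 466, 565 and 541 CPM in Gli3R libraries, against 411, 556 and 524 CPM in control libraries. Its fold of 1.05 had a 95% interval of 0.874 to 1.27, which does not reach the estimated fold of Bmp4 or Msx1. That interval overlaps the one of Bmp4, which begins at 1.25, and a difference between these genes was not tested. Id2 (15902) stood at 192, 177 and 195 CPM in Gli3R libraries, against 141, 196 and 204 CPM in control libraries. Its fold was 1.04 (95% interval 0.850 to 1.27), and the low library was again control replicate 1.

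Id1 (15901) stood at 61.7, 76.0 and 66.0 CPM in Gli3R libraries, against 61.8, 85.3 and 75.3 CPM in control libraries. It was the one gene of the 10 that was lower with Gli3R in all 3 litters, by small amounts, as were 15.3% of tested genes. Its fold was 0.911 (95% interval 0.741 to 1.12), and the adjusted p in the edgeR quasi-likelihood test was 0.970 without the block and 0.807 with it. Without control replicate 1 and without the block, the log2 fold changes of Id2 and Id3 were -0.086 and -0.041, against 0.057 and 0.075 with it.

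Per kilobase, Id3 took 66.4%, 69.5% and 68.8% of the summed level of the 3 Id genes in Gli3R libraries and 67.4%, 66.9% and 66.3% in control libraries. Id1 took 13.7% ± 0.74 in Gli3R and 15.4% ± 0.59 in control libraries, and Id2 18.1% ± 2.01 and 17.7% ± 1.09 (SD, n = 3 each). The groups overlapped for the shares of Id2 and Id3 and did not overlap for that of Id1.

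Smad6 (17130), an inhibitory SMAD that BMP signalling induces and that blocks the type I receptors, was the least abundant member. It stood at 6.06, 8.07 and 10.4 CPM in Gli3R libraries, against 5.57, 5.87 and 7.74 CPM in control libraries. All 3 litters were higher with Gli3R, by 0.12, 0.46 and 0.43 on the log2 scale, but the groups overlapped. Its log2 fold change, 0.33 ± 0.25 (SE), missed the threshold (edgeR, adjusted p = 0.946, and 0.715 with the block). With 209 reads in Gli3R and 152 in control libraries, its 95% interval ran from a fold of 0.847 to 1.87 and could hold no change or one like that of Msx1. In all, 6 of the 10 genes were higher in all 3 litters, against 15% of tested genes.

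**Figure D3:**
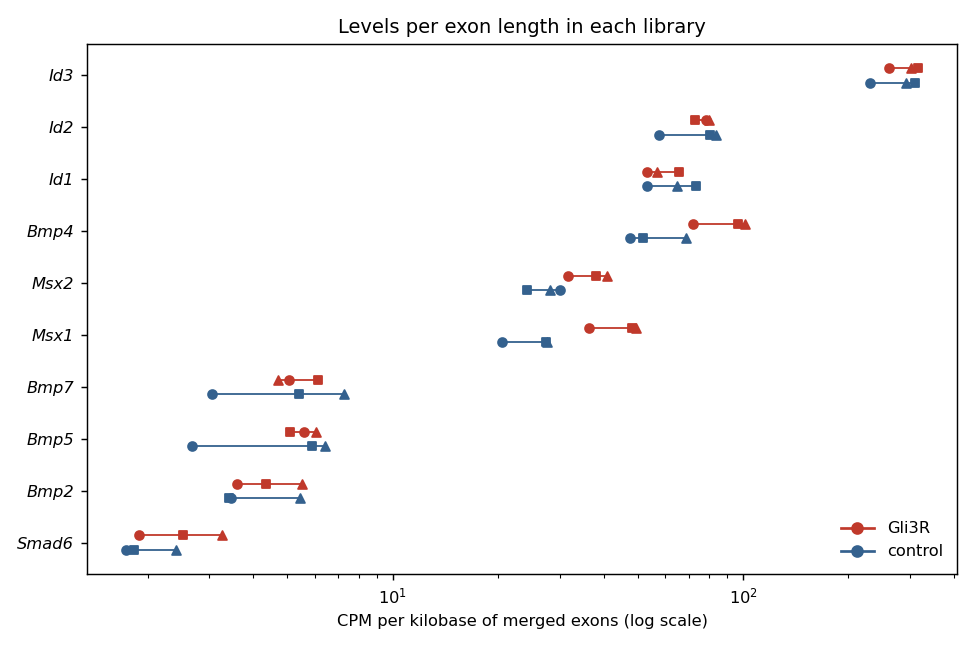
Level of each gene per kilobase of merged exons (log axis) in the Gli3R libraries (red, upper row of each gene) and the control libraries (blue, lower row), with litters 1, 2 and 3 as circles, squares and triangles and a line from the lowest to the highest library. Id3 stood apart at the top in both groups, and Bmp2, Bmp5, Bmp7 and Smad6 lay below 10 CPM per kilobase in every library.

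On the scale per kilobase, the order of the 10 genes in Gli3R libraries was Id3 (293 ± 28.9 CPM per kilobase), Bmp4 (90.1 ± 15.9), Id2 (77.1 ± 3.79), Id1 (58.5 ± 6.31), Msx1 (44.7 ± 7.34), Msx2 (36.9 ± 4.64), Bmp5 (5.58 ± 0.48), Bmp7 (5.29 ± 0.74), Bmp2 (4.50 ± 0.97) and Smad6 (2.55 ± 0.68; SD, n = 3). In control libraries it was Id3 (277 ± 42.4), Id2 (73.9 ± 14.1), Id1 (63.9 ± 10.2), Bmp4 (56.1 ± 11.2), Msx2 (27.4 ± 3.03), Msx1 (25.2 ± 4.0), Bmp7 (5.23 ± 2.11), Bmp5 (4.98 ± 2.02), Bmp2 (4.09 ± 1.15) and Smad6 (1.99 ± 0.37). Neighbours whose ranges overlapped were Bmp4 and Id2, Msx1 and Msx2, Bmp5 and Bmp7, and Bmp7 and Bmp2 in the Gli3R group. In the control group they were Id2 and Id1, Id1 and Bmp4, Msx2 and Msx1, Bmp7 and Bmp5, and Bmp5 and Bmp2. Bmp4 thus stood above Id1 in every Gli3R library, and their ranges overlapped in controls.

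The level of Msx1 per kilobase over that of Msx2 was 1.14, 1.27 and 1.21 in Gli3R replicates 1, 2 and 3, against 0.683, 1.14 and 0.980 in control replicates 1, 2 and 3. Gli3R replicate 1 and control replicate 2 were nearly equal, and the groups did not overlap. A single ratio in 3 against 3 libraries cannot reach an exact permutation p under 0.10, so these ratios are given as values. The ratios, and the place of Msx1 in the order above, leave out the reads counted to Msx1os. As reads of that pair cannot be told apart, the order of Msx1 and Msx2 is not settled.

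**Figure D4:**
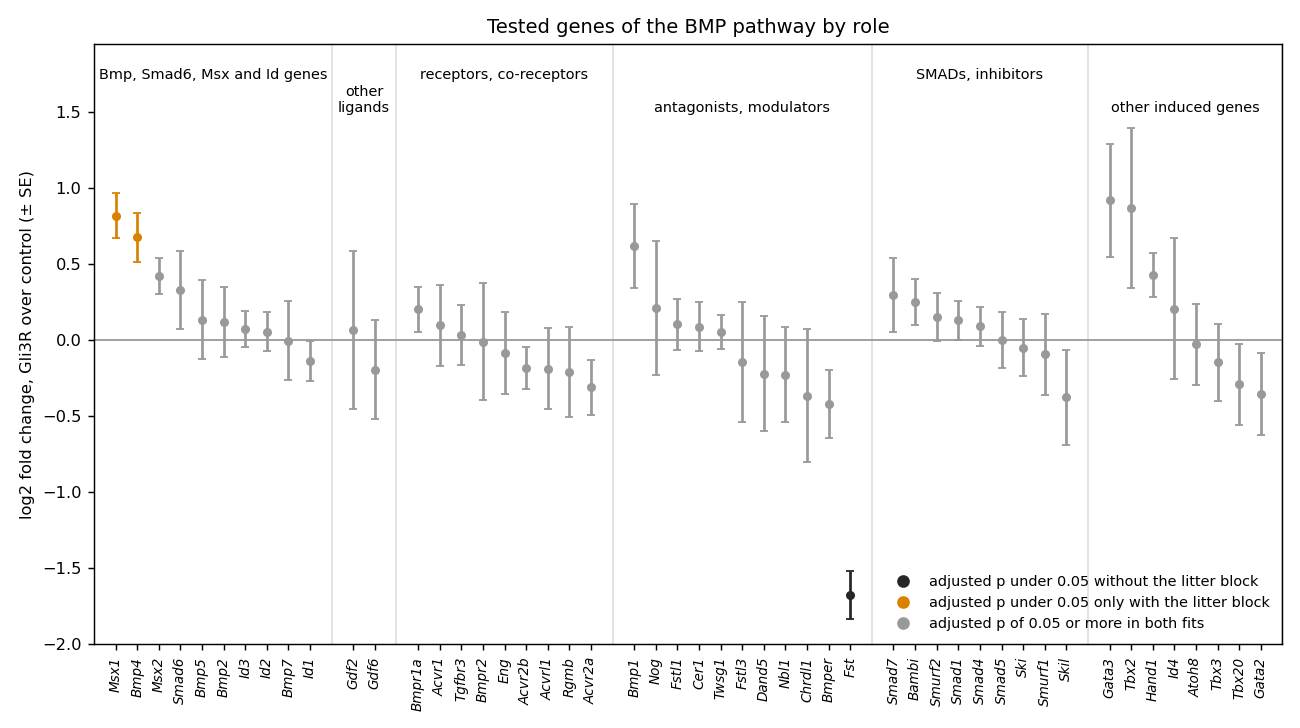
Log2 fold change of Gli3R over control (± SE, fit without the litter block) for the 10 genes and the 39 tested genes of 5 further BMP pathway lists, grouped by role. Black marks a gene with an adjusted p under 0.05 without the block, orange one that passed only with the block, and grey the others. Fst is the black point at -1.68, and Msx1 and Bmp4 are the orange points.

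The rest of the BMP pathway was read from 5 lists of 63 genes, of which 39 were tested. In edgeR without the block, 0 of the 39 rose and 1 fell, and the counts were equal with the block, by DESeq2 and by limma-voom. At an unadjusted p under 0.05 without the block, 3 were higher and 1 lower. Their median log2 fold change was -0.010, near that of all tested genes. The 24 genes not tested had at most 53 reads over the 6 libraries, and 3 of them (Bmp10, Gdf7 and Sost) had none.

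Of the other ligands, Gdf2, also known as BMP9, and Gdf6 were tested, and neither passed. Gdf2 averaged 2.12 ± 1.36 CPM in Gli3R and 2.07 ± 1.12 CPM in control libraries, and Gdf6 2.41 ± 0.09 and 2.67 ± 0.98 CPM (SD, n = 3 each). Bmp3, Bmp6, Bmp8a, Bmp8b, Bmp10, Gdf5 and Gdf7 had too few reads.

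None of 9 tested receptor and co-receptor genes passed in edgeR with or without the block, by DESeq2 or by limma-voom, and 0 had an unadjusted p under 0.05. Bmpr1a, the main type I receptor gene of the gastrula, averaged 70.4 ± 15.1 CPM in Gli3R and 60.9 ± 5.25 CPM in control libraries (log2 fold change 0.20 ± 0.15, SE). The type II receptor genes Acvr2a and Acvr2b stood at -0.31 ± 0.18 and -0.18 ± 0.14 on the same scale, and the co-receptor gene Rgmb at -0.21 ± 0.30. Bmpr1b, Rgma and Hfe2 were below the filter.

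Among 11 tested antagonists and extracellular modulators, 1 fell and 0 rose. Fst (14313) encodes follistatin, a secreted protein that binds activin tightly and some BMPs less tightly. It stood at 17.8, 13.5 and 14.9 CPM in Gli3R libraries, against 49.5, 56.4 and 42.4 CPM in control libraries, and fell by 1.68 ± 0.16 (SE) on the log2 scale (edgeR quasi-likelihood test, adjusted p = 0.00450, and 0.0121 with the block). No Gli3R library reached the level of any control library.

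Bmp1, a metalloprotease gene named with the ligands whose product cleaves the antagonist chordin, averaged 4.54 ± 0.61 CPM in Gli3R and 2.85 ± 0.73 CPM in control libraries. Its log2 fold change of 0.62 ± 0.28 did not pass (edgeR quasi-likelihood test, adjusted p = 0.728). Bmper, which encodes a BMP-binding protein, and Chrdl1, a chordin-like antagonist gene, stood at -0.42 ± 0.22 and -0.37 ± 0.44. Genes of this list too sparse to be tested included the antagonist genes Chrd, Chrdl2, Grem1, Sost and Sostdc1 and the modulator genes Tll1, Crim1 and Kcp.

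Of 9 tested SMAD transducers and intracellular inhibitors, 0 passed in either edgeR fit, by DESeq2 or by limma-voom. At an unadjusted p under 0.05 in edgeR, 0 differed without the block, and 1 was higher and 1 lower with it. Smad1, a transducer, averaged 24.3 ± 1.57 CPM in Gli3R and 22.1 ± 1.85 CPM in control libraries. Smad7, the relative of Smad6, stood at a log2 fold change of 0.30 ± 0.24 (SE). Bambi, which encodes a receptor-like inhibitor that BMP itself induces, averaged 166 ± 22.1 CPM in Gli3R and 139 ± 28.9 CPM in control libraries (0.25 ± 0.15), and was higher in all 3 litters. Skil, a SMAD corepressor gene, stood at -0.38 ± 0.31. Smad9 and Pmepa1 were below the filter.

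Of 8 other tested genes known to be induced by BMP in embryos, 0 passed in either edgeR fit, by DESeq2 or by limma-voom, and 2 were higher at an unadjusted p under 0.05 in edgeR without the block. These were Hand1, a gene of extraembryonic and lateral mesoderm, and Gata3. Hand1 stood at 142, 191 and 207 CPM in Gli3R libraries, against 118, 130 and 151 CPM in control libraries, and was higher in each litter (log2 fold change 0.43 ± 0.14, SE; edgeR adjusted p = 0.509, and 0.123 with the block). Gata3 averaged 3.09 ± 1.05 CPM in Gli3R and 1.58 ± 0.29 CPM in control libraries (0.92 ± 0.37). Tbx2 and Gata2 stood at 0.87 ± 0.53 and -0.35 ± 0.27. Dlx3, Dlx5 and Nkx2-5 were below the filter.

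**Figure D5:**
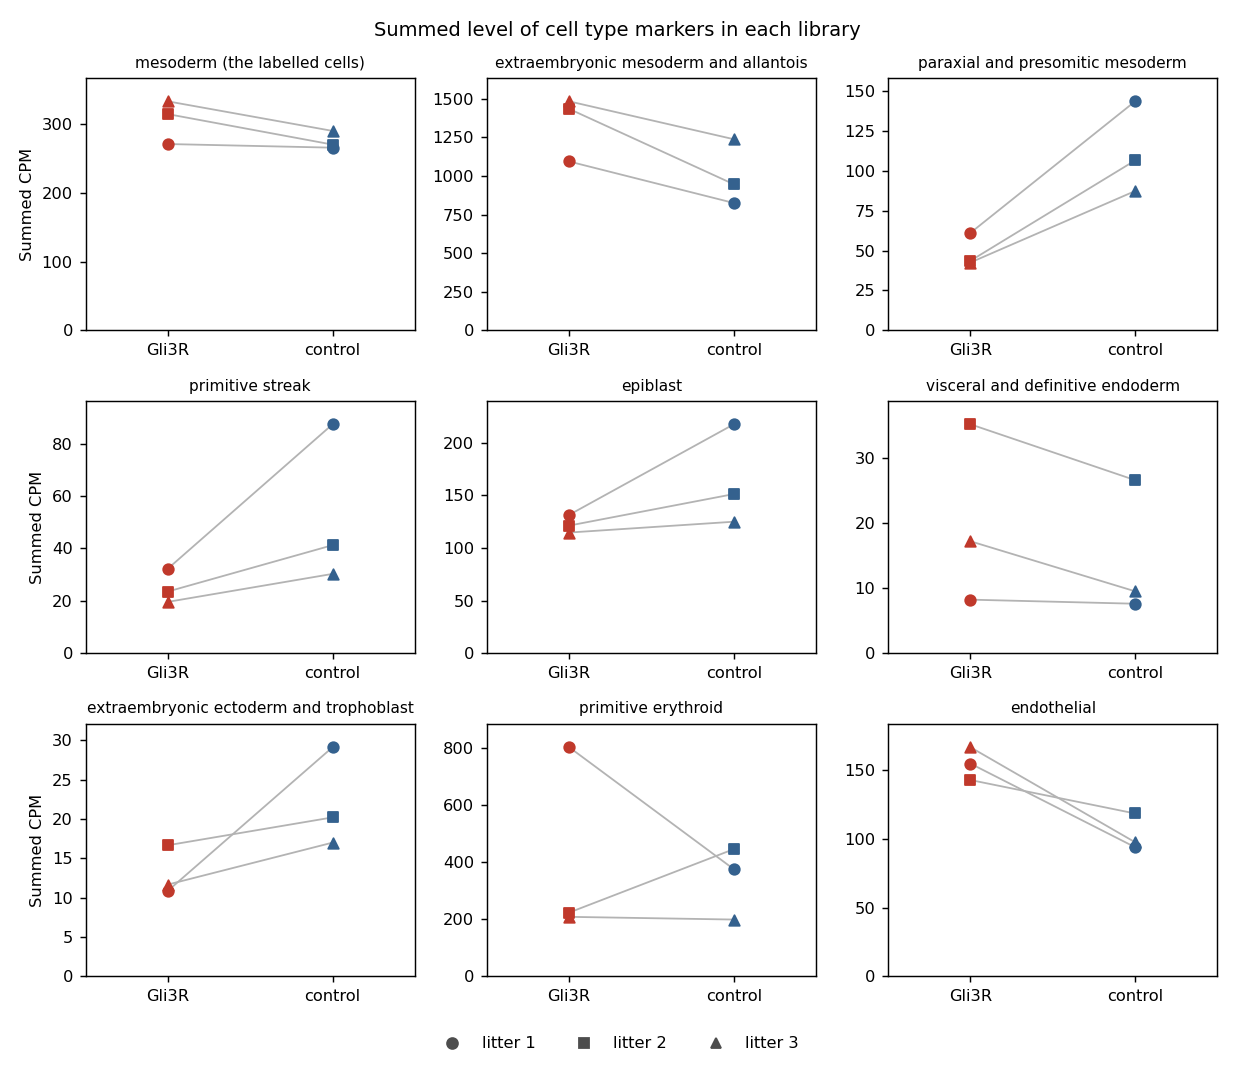
Summed CPM of the markers of 9 cell types in each Gli3R library (red, left) and each control library (blue, right), on linear axes from 0, with litters 1, 2 and 3 as circles, squares and triangles joined by grey lines. Paraxial, trophoblast and endothelial sums did not overlap between the groups, and extraembryonic mesoderm was higher with Gli3R within each litter.

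Summed markers of some cell types were also higher with Gli3R. The 8 markers of extraembryonic mesoderm and allantois, tissues in which Bmp4 and Msx1 are known to be expressed, summed to 1094 to 1483 CPM in Gli3R and 825 to 1238 CPM in control libraries. They were higher with Gli3R within each litter, although the groups overlapped. Control replicate 1 had the lowest sum. Pmp22 and Spin2c made up most of the sum in every library, at 560 ± 105 and 397 ± 37.5 CPM in Gli3R and 425 ± 113 and 336 ± 56.6 CPM in control libraries (SD, n = 3 each). Of 7 tested, Ahnak rose in both edgeR fits, Ahnak and Tagln rose by DESeq2, and 0 fell. At an unadjusted p under 0.05 in edgeR, 3 of the 7 were higher without the block and 5 with it, and 0 were lower. The shares of all tested genes that were higher in these fits were 3.56% and 4.83%. Hand1, described above, is on this list too, and the allantois gene Tbx4 had a log2 fold change of -0.38 ± 0.23 (SE) and was lower in litters 2 and 3. The 6 endothelial markers summed to 143 to 167 CPM in Gli3R and 94.1 to 119 CPM in control libraries. Etv2 and Tal1 made up most of that sum, at 96.2 and 30.8 CPM on average in Gli3R and 62.2 and 15.8 CPM in control libraries. Of 5 tested, 0 passed in edgeR, where these 2 were higher at an unadjusted p under 0.05, and both passed by DESeq2. Pecam1, Tek and Cldn5 stood at log2 fold changes of 0.055 ± 0.20, 0.21 ± 0.24 and 0.16 ± 0.74 (SE), and Cdh5 was below the filter.

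Summed markers of 4 other cell types were lower with Gli3R within each litter, and control replicate 1 had the highest sum of each. The 10 paraxial and presomitic markers summed to 42.5 to 61.0 CPM in Gli3R and 87.3 to 143 CPM in control libraries. Of 8 tested, Dll3 fell in both fits, and Dll3 and Ripply2 fell by DESeq2. At an unadjusted p under 0.05 in edgeR, 7 of the 8 were lower without the block and 8 with it. Of all tested genes, 3.29% and 3.9% were lower in these fits. The 6 streak markers summed to 19.6 to 32.3 CPM in Gli3R and 30.3 to 87.4 CPM in control libraries. The control sums were 87.4 CPM in replicate 1 and 41.3 and 30.3 CPM in replicates 2 and 3. Of 6 tested, T fell with the block and Fgf8 by DESeq2, and 2 were lower at an unadjusted p under 0.05 in edgeR without the block. The 6 epiblast markers summed to 115 to 132 CPM in Gli3R and 125 to 218 CPM in control libraries. Dnmt3b made up most of that sum, at 100 ± 7.27 CPM in Gli3R and 111 ± 22.0 CPM in control libraries (SD, n = 3 each). Of 4 tested, Cdh1 fell with the block, and Pou5f1, Epcam and Cdh1 fell by DESeq2. These 3 were also lower at an unadjusted p under 0.05 in edgeR without the block.

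The fourth was extraembryonic ectoderm, a main source of Bmp4 in the gastrula, which was little represented. Its 6 markers summed to 10.9 to 16.7 CPM in Gli3R and 17.0 to 29.1 CPM in control libraries, and its defining gene Elf5 had no read in any library. The 8 endoderm markers summed to 8.23 to 35.1 CPM in Gli3R and 7.61 to 26.6 CPM in control libraries, and the 6 erythroid markers to 209 to 804 CPM and 199 to 446 CPM. Of these lists, 6 erythroid, 4 endoderm and 3 extraembryonic ectoderm markers were tested, and 0 passed in either edgeR fit or by DESeq2. At an unadjusted p under 0.05 in edgeR without the block, 1 erythroid marker was higher and 0 endoderm markers differed. All 3 tested extraembryonic ectoderm markers were lower in that fit. The shares over all tested genes were 3.56% higher and 3.29% lower. The part of these cell types in the results for Bmp4, Msx1 and Msx2 was not tested, and in bulk RNA more cells of a type and more RNA per cell cannot be told apart.

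The genes whose log2 CPM followed Bmp4 most closely over the 6 libraries, among 9336 tested genes at a mean of at least 5 CPM, were Tagln (Pearson r = 0.997), Tpm2 (0.987), Ptprf (0.986) and Anxa2 (0.985). Tagln and Tpm2 encode proteins of the actin cytoskeleton, and Tagln is also on the extraembryonic mesoderm list. The genes most like Msx1 were Msx1os (0.999), Pdlim3 (0.986), Lmna (0.985) and Schip1 (0.984). These values hold the difference between the groups as well as that within them, and they rest on 6 libraries. Of the 9336 genes, 217 had an r above 0.9 with Bmp4 and 152 with Msx1. Tagln averaged 99.4 ± 26.6 CPM in Gli3R and 52.1 ± 16.4 CPM in control libraries (SD, n = 3 each), with a log2 fold change of 0.92 ± 0.24 that did not pass without or with the block (edgeR quasi-likelihood test, adjusted p = 0.318 and 0.0502). Tagln passed by DESeq2. Pdlim3 averaged 11.4 ± 3.14 CPM in Gli3R and 4.26 ± 1.31 CPM in control libraries (1.38 ± 0.29; adjusted p in edgeR 0.188, and 0.0502 with the block).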

How the data were processed

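Per the labels' protocols, SMARTer Ultra Low cDNA from 1000 sorted cells was made into Nextera XT libraries. The authors deposited raw counts per Entrez gene, with 1 column per library. Tools in the submitters' processing notes are featureCounts, Subread 1.4.6, TopHat2 2.0.14, edgeR and FastQC, and the build is mm9. How multi-mapped reads and strand were handled, and with which annotation, is not given in the sources used here.

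The 10 genes and all lists were chosen with earlier results of these data known. Counts were analysed in R 4.3.3 with edgeR 4.0.16 (filterByExpr, minimum count 10; TMM scaling; quasi-likelihood test, two-sided, Benjamini-Hochberg over 11913 genes, threshold 0.05). Standard errors were taken from the F statistic, and 95% intervals from the t distribution. A second fit held litter as a block. By the labels, libraries of 1 number share a litter. In the data, same-litter deviations from the group means had correlations of 0.168, 0.187 and 0.0755, and those between litters -0.269 to 0.162. With 3 pooled litters, p-values measure the spread between these pools. No library was a copy of another (chi-square per gene 4.09 to 14.8). The limit that a count of 0 allows was 0.233 to 0.557 CPM, for counting error only.

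Alternatives were DESeq2 1.42.0, limma-voom (limma 3.58.1), other scalings and filters, and each library or litter left out. Exon lengths came from GENCODE M21 (GRCm38). Named are the 10 genes, Gli3, a gene that overlaps a member, of each pathway list up to 4 tested genes with the smallest p and any that passed, and the 4 genes most like Bmp4 and Msx1.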

Additional observations from a re-analysis of the deposited data

How the results depend on the processing

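Over all genes, 16 passed in edgeR without the block, against 27 with the litter block, 108 without the low-count filter, 94 by DESeq2 and 10 by limma-voom. Of the 10 BMP genes 0 passed, against 2 (Bmp4 and Msx1) with the litter block, without the filter or by DESeq2. With 1 library left out, the count over all genes ran from 0 (without Gli3R replicate 3, where 659 had an unadjusted p under 0.05) to 18. Without litter 1, 2 or 3 it was 27, 2 or 0, and 221, 3 or 0 with the block, a fit chosen after the data were seen. Of the 10, 0 passed without any 1 library, 1 without litter 1, and 3 with the block and without litter 1. Bmp4, Msx1, Msx2 and Smad6 stayed higher, and Id1 lower, under every alternative run. Their log2 fold changes ranged from 0.58 to 0.85, 0.70 to 0.95, 0.33 to 0.60, 0.13 to 0.52 and -0.24 to -0.014.

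The direction of Bmp7 (-0.0025) turned with the litter block (0.073), DESeq2 size factors (0.0018), library size alone (0.0062), no filter (0.0042), at least 5 CPM in 3 libraries (0.0046), DESeq2 (0.0078) and limma-voom (0.027). With 1 library left out, Bmp7 ran from -0.25 to 0.30, Bmp2 from -0.048 to 0.38, Bmp5 from -0.14 to 0.34, Id2 from -0.086 to 0.16 and Id3 from -0.041 to 0.17. Without a litter, values on the other side of 0 were -0.14 for Bmp5 and -0.10 for Id2 (litter 1) and 0.37 for Bmp7 (litter 3). With the block too, they were -0.14 and -0.11 (litter 1), 0.43 (litter 3) and, for Bmp7, 0.036 (litter 2). The cause was not tested. The adjusted p of Bmp4 and Msx1 lay between 2.80e-04 (Bmp4) or 4.67e-05 (Msx1) and 1.000 over these alternatives. Smad6 had the fewest reads of the 10, at 30 to 78 per library.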
